A study of Mus musculus with 28 samples.

Results

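The comparison described here set 1 mM against 25 mM glucose in NIH3T3 K-ras cells, 48 h after the change of medium. Its members were chosen by sample title and comprised 4 of the 28 arrays of the study: 2 of cultures in 1 mM glucose and 2 of cultures in 25 mM glucose. NIH3T3 is an immortalised mouse embryonic fibroblast line, and NIH3T3 K-ras is the other line of the study, a transformed counterpart by its name. The labels do not give how the line was made or whether it was derived from 1 clone, so the comparison concerns 1 line and not independent transformants. All the cultures had newborn calf serum and 4 mM glutamine in their medium, so the groups differed in glucose alone as far as the labels say. The study followed NIH3T3 and NIH3T3 K-ras cells in the same media at 0, 24, 48 and 72 h, with 2 arrays in each of 14 groups, to find genes whose expression depends on glucose availability.

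Glucose enters glycolysis, and its phosphorylated products also feed protein glycosylation and activate the transcription factors MondoA and ChREBP, which read the sugar phosphate level. Cells that run short of glucose can lose glycosylation of proteins in the endoplasmic reticulum (ER), which activates the unfolded protein response (UPR), and can activate the integrated stress response, in which phosphorylation of eIF2 raises translation of ATF4 and the transcription of its targets. Oncogenic Ras raises glucose uptake and glycolysis in fibroblasts, and Ras-transformed cells are known for their dependence on glucose in culture.

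Each value below is a log2 ratio of a gene's signal to that gene's own median over the 28 arrays, so 0 is the median array and 1 is a doubling. Pairs of values are given in the order replicate 1, replicate 2. The levels of different genes cannot be compared on this scale.

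The line profile of each array was checked first with Il33, a cytokine high in the K-ras line, and Krt14, a keratin high in the NIH3T3 line. Il33 read 3.09 and 2.84 in the 25 mM arrays, and Krt14 read -4.38 and -4.22. The array of 1 mM replicate 2 had the same profile, with 2.98 for Il33 and -4.22 for Krt14. The library labelled 1 mM replicate 1 did not: Il33 read -5.64 and Krt14 1.86, as in arrays labelled NIH3T3. Another of the 3 probe sets of Krt14 differed by 0.27 between the glucose groups, against 3.12 for the one used. Over 8 genes high in the K-ras line, the mean was -3.54 in this library against 2.31 in 1 mM replicate 2 and 3.05 and 2.71 in the 25 mM arrays. Across 18193 genes, which are not independent, the 25 mM arrays correlated with each other at r = 0.71, and 1 mM replicate 2 correlated with them at 0.53 and 0.54. The library labelled 1 mM replicate 1 correlated at -0.53 with its own replicate and at -0.59 and -0.54 with the 25 mM arrays. It is 1 of 6 arrays of the series whose profile is that of the other line. No array was moved to another group, and results are given with it and without it, which leaves 1 array in 1 mM glucose.

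**Figure D1:**
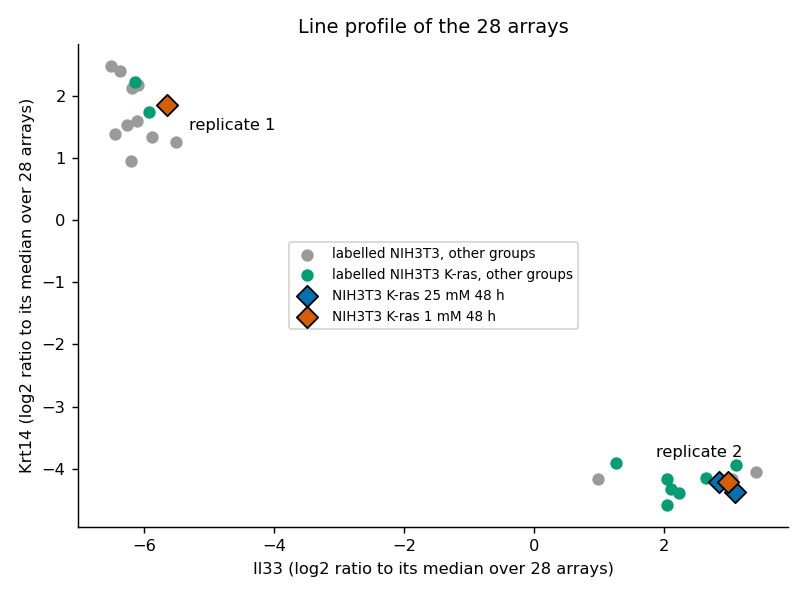
Il33 (x axis) and Krt14 (y axis) in the 28 arrays, as log2 ratios to each gene's median; diamonds are the 4 arrays compared here and circles the other groups by their label. The diamond of 1 mM replicate 1, at -5.64 for Il33 and 1.86 for Krt14, lies with the arrays labelled NIH3T3, and the other 3 diamonds lie together at 2.84 to 3.09 for Il33.

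With all arrays as labelled, limma called 0 of 18193 genes higher and 0 lower at 1 mM (0% in each direction, adjusted p under 0.05 by Benjamini-Hochberg), and 759 genes (4.17%) had an unadjusted p under 0.05. Without the library labelled 1 mM replicate 1, limma again called 0 genes, with 298 (1.64%) at an unadjusted p under 0.05, and without all 6 arrays it called 0, with 463 (2.54%). With the line profile of the array as a term it called 0, with 667 (3.67%). The smallest adjusted p was 0.24 as labelled, for Abcd2. The labels call the arrays biological replicates. As labelled, some groups hold arrays of both profiles, so the spread behind the p-values includes the difference between the lines. Il33, for example, had an SE of 3.03 as labelled. Leaving out 1 mM replicate 1 alone keeps the others of the 6 arrays in the fit, so the same limit holds there. The RNA came from whole cultures, so fewer cells of a kind and less RNA per cell cannot be told apart.

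The arrays at 1 mM differed from 25 mM by different amounts. The library labelled 1 mM replicate 1 lay at least 1 log2 unit above the mean of the 25 mM arrays in 1054 genes (5.79%) and as far below it in 1153 (6.34%). In 1 mM replicate 2 these counts were 82 genes (0.451%) above and 255 (1.4%) below. Both 1 mM arrays lay above both 25 mM arrays in 3714 genes (20.4%) and below both in 3082 (16.9%). For 1 mM replicate 2 alone, 6911 genes (38%) lay above both 25 mM arrays and 6096 (33.5%) below both. Gene lists are read against these shares below. The median log2 difference over all genes was 0.030 as labelled and 0.016 without 1 mM replicate 1.

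**Figure D2:**
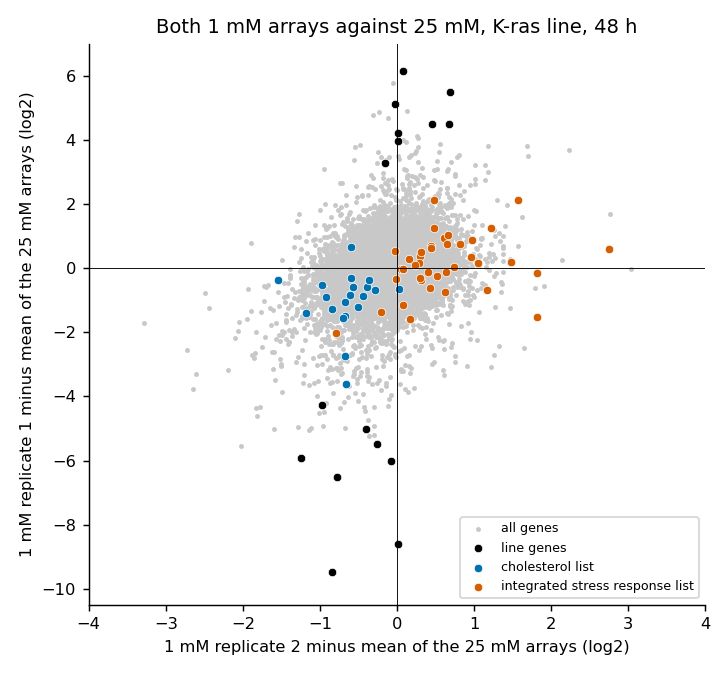
Difference of each 1 mM array from the mean of the 25 mM arrays, in log2 units, for 18193 genes (grey), with replicate 2 on the x axis and replicate 1 on the y axis; black points are 16 genes that differ between the lines, blue points the 20 cholesterol genes and orange points the 39 integrated stress response genes. The line genes spread along the replicate 1 axis and lie between -1.25 and 0.68 on the replicate 2 axis, while most cholesterol genes lie left of 0 and most stress response genes right of it.

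Txnip, an arrestin-fold protein that limits glucose uptake and whose transcription follows glucose through MondoA and ChREBP, was lower in both 1 mM arrays than in both 25 mM arrays. It read -0.62 and -2.19 at 1 mM and 1.78 and 0.41 at 25 mM, and the groups did not overlap. The log2 difference was -2.50 ± 1.08 (SE, n = 2 and 2; limma adjusted p = 1.00), and -3.29 without 1 mM replicate 1, the lowest of the 18193 genes in that comparison. A second probe set of Txnip gave -1.20, and -1.53 without 1 mM replicate 1. Arrdc4, an arrestin-fold paralogue that responds to the same factors, read 0.52 and -0.48 at 1 mM and -0.02 and -0.28 at 25 mM. Its groups overlapped, and its difference was 0.17, with another probe set at -0.37, and -0.33 without 1 mM replicate 1. At 24 h the K-ras arrays of Txnip did not separate by glucose: they read -2.36 and -0.45 at 1 mM and -1.79 and -0.48 at 25 mM.

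The 250 bases before the annotated starts of these genes are shown because Txnip is the textbook gene for a carbohydrate response element (RefSeq, GRCm38.p6, 5′ to 3′ on the gene's strand). Txnip lies on chr3:96557707-96557956 (+ strand) and Arrdc4 on chr7:68749239-68749488 (- strand). Capitals mark in Txnip a pair of E-box-like half-sites, CACGNG and then CNCGNG with 5 bases between them, and the E-box CACGTG in Arrdc4.
Txnip: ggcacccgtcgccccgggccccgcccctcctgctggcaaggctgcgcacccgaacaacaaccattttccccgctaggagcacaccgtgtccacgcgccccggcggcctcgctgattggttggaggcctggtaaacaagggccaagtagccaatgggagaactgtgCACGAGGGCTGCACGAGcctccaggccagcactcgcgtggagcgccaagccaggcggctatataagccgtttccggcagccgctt
Arrdc4: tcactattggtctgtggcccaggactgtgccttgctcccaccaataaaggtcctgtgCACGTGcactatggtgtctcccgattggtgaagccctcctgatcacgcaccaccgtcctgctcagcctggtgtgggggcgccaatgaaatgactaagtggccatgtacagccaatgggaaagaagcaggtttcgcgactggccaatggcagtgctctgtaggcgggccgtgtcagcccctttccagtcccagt
The element of Txnip spans 85 to 69 bases before the start, and the E-box of Arrdc4 spans 193 to 188. Both strands were searched, and the first half-site of the pair can itself be an E-box. Of 32851 windows of this length, 92 (0.28%) held the pair and 1978 (6.021%) held CACGTG. These matches describe letters and not bound sites.

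The other genes of the glucose-sensing list lay on both sides of the controls. Of its 12 members, 4 lay below both 25 mM arrays in both 1 mM arrays and 1 lay above, against 16.9% and 20.4% of all genes. These counts include 1 mM replicate 1, which has the profile of the other line. Arrdc3, an arrestin-fold adaptor for receptors, read -1.03 and 0.84 at 1 mM and 2.01 and 1.32 at 25 mM. Mxd4 and Mxd1, partners of MAX that oppose MYC, differed by -0.77 and -0.30 without 1 mM replicate 1, with other probe sets at -0.045 and -0.053. The median of the list was 0.17 as labelled and -0.18 without that library, so its sign depends on it.

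Glycolytic genes lay on both sides. Of 30 measured genes of glycolysis, glucose uptake and lactate handling, 12 lay above both 25 mM arrays in 1 mM replicate 2 and 9 below, against 38% and 33.5% of all genes, none by 1 log2 unit, and the list's median without 1 mM replicate 1 was 0.021. Pfkfb3, which makes the activator of phosphofructokinase, read 0.45 and -0.10 at 1 mM and -0.85 and -0.69 at 25 mM. Pfkp, the platelet-type phosphofructokinase, read 0.72 and -0.98 against -1.48 and -1.78. Pfkl, the liver-type enzyme, read -0.48 and -0.00 against 0.90 and 0.50, so on these probe sets the subunits lay on opposite sides. A different probe set of Pfkl gave a difference of 0.10, and others of Pfkp gave 0.036 as labelled and -0.25 without 1 mM replicate 1, so the direction depends on the probe set for both. The glucose transporter Slc2a1 differed by 0.38 and hexokinase Hk2 by 0.59 without 1 mM replicate 1, and the groups of both overlapped. As labelled Slc2a1 differed by -0.11, with another probe set at -0.013. Lactate dehydrogenase Ldha differed by -0.36 in the same comparison. Pdk1, which inhibits pyruvate dehydrogenase, read -2.38 and 0.47 against 1.13 and 0.59, so most of its labelled difference of -1.82 came from the library with the other profile.

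Genes of the hexosamine pathway and protein glycosylation showed no common direction. Of 29 measured, 9 lay above both 25 mM arrays in 1 mM replicate 2 and 15 below, against 38% and 33.5% of all genes. Gfpt1, the first enzyme of the hexosamine pathway, read -0.61 and 0.10 at 1 mM and 0.60 and 0.46 at 25 mM, a difference of -0.78, with another probe set at 0.27. Ogt, which adds N-acetylglucosamine to cytoplasmic and nuclear proteins, read -1.19 and -1.37 at 1 mM and 1.72 and 0.99 at 25 mM, a difference of -2.64. Another of its 5 probe sets gave a difference of 0.06, and the one used here ranged from -1.72 to -0.39 in the 24 h K-ras arrays of both media.

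Genes were eligible if the groups did not overlap and the difference without 1 mM replicate 1 was at least 1 log2 unit. Of these, the 10 lower at 1 mM with the smallest unadjusted p included enzymes of lipid and hormone metabolism and secreted proteins. None passed the adjusted threshold. Abcd2, a peroxisomal fatty acid transporter, read -0.13 and 0.01 at 1 mM and 1.79 and 1.49 at 25 mM. Its difference was -1.70 ± 0.28 (SE), and both 1 mM arrays lay more than 1 log2 unit below the 25 mM arrays. The library labelled 1 mM replicate 1 has the NIH3T3 profile. Arrays labelled NIH3T3 at 25 mM and 48 h read 0.05 and -0.13 for Abcd2. In that library glucose and line cannot be told apart, for this and the other named genes. Hsd17b11, a lipid droplet hydroxysteroid dehydrogenase, read -0.71 and -0.13 against 1.37 and 1.35, a difference of -1.78, but another probe set gave -0.081. Without 1 mM replicate 1 the highest probe set of Hsd17b11 gave 0.013. Dio2, the deiodinase that activates thyroid hormone, read -0.74 and 1.78 against 3.93 and 3.29, with a difference of -3.08 ± 0.64 (adjusted p = 0.64) and -1.82 without 1 mM replicate 1. The level of Dio2 in 1 mM replicate 2 lay between those of the other library and of the 25 mM arrays. Abcd2 and Dio2 had other probe sets with differences of 0.15 and -0.53.

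Hp (haptoglobin, an acute-phase protein) read -0.12 and 0.69 at 1 mM and 3.53 and 1.53 at 25 mM. Cdo1, the cysteine dioxygenase, read -0.30 and 0.12 against 2.76 and 0.92. Sfrp2, a secreted Wnt modulator, read -0.07 and 0.46 against 2.56 and 1.16. In these 3 genes the 25 mM arrays differed from each other by more than 1 log2 unit, with replicate 1 the higher. Il13ra1, a receptor subunit for IL-4 and IL-13, differed by -2.18, Ccdc25 by -1.89, Myh1, a skeletal myosin heavy chain, by -1.81 and Plekha4 by -1.71. Other probe sets of Il13ra1, Myh1 and Plekha4 gave 0.17, 0.11 and 0.20. In Hp, Cdo1 and Myh1 the adjusted p was 0.014, 0.014 and 0.042 when 25 mM replicate 2, the lower control, was left out.

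The 10 genes higher at 1 mM, chosen under the same limits, had adjusted p-values of 0.98 to 1.00. Some genes with a smaller unadjusted p, such as Tnfrsf10b and Heatr1, fell short of the limit of 1 log2 unit and were left out. Ptgs2 (cyclooxygenase 2, which makes the precursor of prostaglandins) read 0.39 and 1.47 at 1 mM and -1.66 and -0.93 at 25 mM. Its difference was 2.23 ± 0.68 (SE), and 2.77 without 1 mM replicate 1, where it had the smallest unadjusted p of the fit without the 6 arrays (adjusted p = 0.72). A second probe set gave 1.05 and 1.08. Nppb, the precursor of B-type natriuretic peptide, read 2.37 and 0.89 against -1.23 and -1.44. Pkp2, a desmosomal plakophilin, read 1.33 and -0.75 against -2.33 and -1.45. Smad5, a transducer of BMP signals, read 0.45 and 0.67 against -0.62 and -0.69, and Tead4, a DNA-binding partner of YAP, 0.57 and 0.30 against -0.73 and -0.86. In Smad5 and Tead4 both 1 mM arrays lay more than 1 log2 unit above both 25 mM arrays, but 1 mM replicate 1 has the NIH3T3 profile. Arrays labelled NIH3T3 at 25 mM and 48 h read 0.25 and 0.01 for Smad5 and 0.92 and 0.26 for Tead4. Pawr, a pro-apoptotic regulator, differed by 1.01, Tmem47 by 1.70, Cpeb2, which binds cytoplasmic polyadenylation elements, by 1.23, Tsga10 by 1.35 and Nepro by 1.40. Other probe sets of Smad5, Tsga10, Pawr, Cpeb2 and Pkp2 gave -0.27, -0.03, 0.06, 0.11 and 0.13 as labelled. Without 1 mM replicate 1 the lowest probe set of each gave -0.11, 0.05, -0.02, -0.11 and -0.20, so the direction depends on the probe set.

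**Figure D3:**
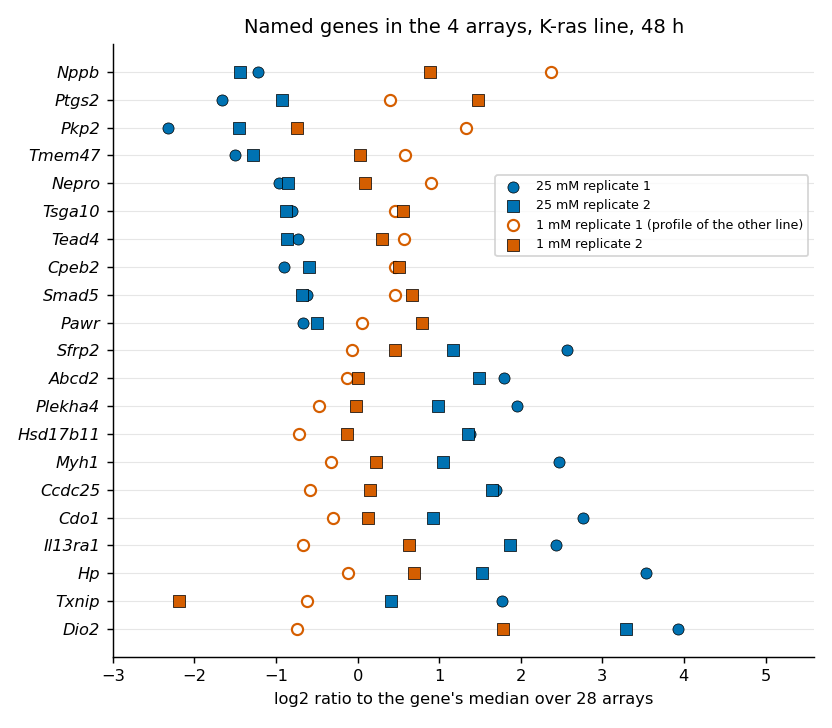
Log2 ratios of the 20 genes named by unadjusted p, 10 in each direction, and of Txnip, in the 4 arrays. Blue is 25 mM and orange 1 mM, and open circles are the library labelled 1 mM replicate 1. The 20 genes were chosen so that both orange symbols lie on one side of both blue symbols. A difference of at least 1 log2 unit without that library was also required. Txnip is the only gene shown in which 1 mM replicate 2 lies below -1, at -2.19.

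The windows before the starts of Dio2 (chr12:90739039-90739288, - strand) and Ptgs2 (chr1:150099781-150100030, + strand) are shown as those of 2 of the 20 genes chosen as above (RefSeq, GRCm38.p6). Dio2 had the largest negative difference among them as labelled, and Ptgs2 the largest positive one without 1 mM replicate 1. Capitals mark the cAMP response element TGACGTCA in Dio2, 95 to 88 bases before the start, and the C/EBP palindrome TTGCGCAA in Ptgs2, 69 to 62 bases before it.
Dio2: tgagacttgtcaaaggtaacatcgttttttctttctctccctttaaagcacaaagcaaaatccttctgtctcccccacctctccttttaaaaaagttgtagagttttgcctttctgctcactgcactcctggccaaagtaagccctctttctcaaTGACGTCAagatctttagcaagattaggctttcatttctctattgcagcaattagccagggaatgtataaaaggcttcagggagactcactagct
Ptgs2: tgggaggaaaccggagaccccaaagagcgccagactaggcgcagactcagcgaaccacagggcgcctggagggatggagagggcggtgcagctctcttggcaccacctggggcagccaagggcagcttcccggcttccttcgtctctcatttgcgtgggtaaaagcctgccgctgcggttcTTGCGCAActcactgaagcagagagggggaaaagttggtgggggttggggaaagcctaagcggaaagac
On both strands, 508 of 32851 windows (1.546%) held TGACGTCA and 54 (0.164%) held TTGCGCAA. Cebpb, which encodes a factor that binds C/EBP motifs, read -0.69 and 0.53 at 1 mM and 1.70 and 0.95 at 25 mM, lower where Ptgs2 was higher.

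Genes of cholesterol synthesis lay lower at 1 mM. Of 20 measured members, 18 lay below both 25 mM arrays in 1 mM replicate 2, against 33.5% of all genes, and 0 lay above. In 16 of 20 both 1 mM arrays lay below both 25 mM arrays, against 16.9% of all genes. That count includes 1 mM replicate 1, which has the profile of the other line. Of the 20 genes, limma called 0. The list's median was -0.80 as labelled and -0.63 without 1 mM replicate 1. Sc5d, a desaturase late in the pathway, read -0.41 and 0.01 at 1 mM and 1.16 and 0.54 at 25 mM. Fdps, which makes farnesyl diphosphate, read -0.28 and 0.42 against 1.22 and 0.63, with another probe set differing by -0.13 in place of -0.86. Lss, which closes the sterol rings, read -1.38 and 0.70 against 1.69 and 1.06. Lss in 1 mM replicate 1 lay far below the other arrays. Msmo1, a methylsterol oxidase, read -0.20 and 0.00 against 1.23 and 1.14, but -0.725 and 1.15 in the 24 h arrays at 25 mM. Stard4, a sterol carrier, read 0.04 and -1.14 against 0.46 and 0.36. It had the largest difference of the list without 1 mM replicate 1, at -1.55. The K-ras arrays of Stard4 at 25 mM read -1.87 and 0.38 at 24 h and 0.47 and -1.84 at 72 h. Its value of -1.14 thus lies inside the range of the 25 mM arrays at other times. Insig1, which retains the SREBP complex in the ER, was the exception with a positive value without 1 mM replicate 1, at 0.025. The gap of 1 mM replicate 2 from its nearer control was small: its list mean was 0.01, against 0.92 and 0.42 in the 25 mM arrays, which differed from each other by more than that. At 24 h the list means were -0.00 and 0.05 at 1 mM and -0.09 and 0.15 at 25 mM, with overlap. Means at 25 mM were higher at 48 h than at 24 h, while 1 mM replicate 2 at 48 h lay at the level of the 24 h arrays. In the 72 h arrays with the K-ras profile the means were -1.27 at 1 mM and 0.59 and 0.34 at 25 mM.

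Collagens, proteoglycans and other matrix genes also lay lower. Of 35 measured, 27 lay below both 25 mM arrays in 1 mM replicate 2 and 3 above, against 33.5% and 38% of all genes. Both 1 mM arrays lay below in 18, against 16.9%, but 1 mM replicate 1 has the profile of the other line. The median difference was -0.38 as labelled and -0.45 without 1 mM replicate 1, and limma called 0. Dcn (decorin) read -3.30 and 0.22 at 1 mM and 2.94 and 1.54 at 25 mM. Another probe set of Dcn gave -0.34 in place of -3.78. Col3a1 (type III collagen) read -0.64 and 0.06 against 2.57 and 1.05, and Lum (lumican) -0.33 and 1.81 against 4.04 and 1.98. For Lum, 1 mM replicate 2 lay only slightly below 25 mM replicate 2. Col5a3 read -1.04 and -0.21 against 1.30 and 0.31, with another probe set at -0.03. Prelp, a small leucine-rich proteoglycan, read -0.17 and -0.49 against 2.12 and 0.13. The chains of type I collagen did not share a direction in 1 mM replicate 2: Col1a1 differed by -0.73 and Col1a2 by 0.26, although other probe sets gave 0.013 and -0.33. The spread between the 25 mM arrays was as wide as many of these differences, with list means of 0.63 and 0.18 against -0.30 and -0.12 at 1 mM. At 24 h the list means were low in both media, -0.44 and -0.40 at 1 mM and -0.45 and -0.33 at 25 mM.

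Hyaluronan and prostanoid genes, chosen after their values were seen, had some of the largest differences outside the lists. Has2, the hyaluronan synthase, read -0.49 and 2.30 at 1 mM and 4.25 and 3.99 at 25 mM, and Ptgfr, the prostaglandin F receptor, -0.12 and 2.43 against 4.40 and 4.03. In both, 1 mM replicate 2 lay more than 1.5 log2 units below both 25 mM arrays, and the differences without 1 mM replicate 1 were -1.82 and -1.78. Another probe set of Ptgfr gave -0.41 as labelled and 0.12 without that library.

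Of 13 fibroblast markers, which define the labelled cell type, 10 lay below both 25 mM arrays in 1 mM replicate 2, against 33.5% of all genes. Pdgfra, the platelet-derived growth factor receptor of fibroblasts, read -2.36 and 0.02 at 1 mM and 1.74 and 1.29 at 25 mM. Vim (vimentin) differed least among those 10, by -0.15 without 1 mM replicate 1, with another probe set at 0.0059. Markers of leukocytes, epithelium, endothelium, fat and skeletal muscle had list medians of -0.019 to 0.19 in that comparison. The absolute level of these markers is not in the values, so no marker can be said to be at background. Gas1, a membrane protein of growth-arrested fibroblasts, read -0.87 and -0.24 against 1.43 and 1.24.

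Inflammatory genes were divided. Of 30 measured matrix metalloproteinase and inflammation genes, 16 lay below both 25 mM arrays in 1 mM replicate 2 and 7 above, against 33.5% and 38% of all genes. Saa3, an acute-phase apolipoprotein, read -0.62 and 0.07 at 1 mM and 3.71 and 1.66 at 25 mM, and Il6 read -0.41 and 0.41 against 3.65 and 0.93. In both, 25 mM replicate 1 stood more than 2 log2 units above its replicate. Mmp19, a matrix metalloproteinase, read -0.24 and -0.01 against 1.70 and 0.70. Cxcl5, a neutrophil chemokine, read 0.55 and -1.16 against 1.56 and 1.11. Ccl8, a monocyte chemokine outside the list chosen after its values were seen, read -0.71 and 0.41 against 4.49 and 1.61. Ptgs2, given above, was the member farthest in the other direction.

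Targets of the integrated stress response lay higher in 1 mM replicate 2, but the 25 mM arrays were far apart. Of 39 measured, 25 lay above both 25 mM arrays in that array, against 38% of all genes, and 1, Cebpb, below both. In 8 it lay at least 1 log2 unit above the 25 mM mean, against 0.451% of all genes, and limma called 0. Ddit3 (CHOP, a pro-death factor of ER stress) read -1.26 and 2.07 at 1 mM and 1.03 and -0.54 at 25 mM. Trib3, a pseudokinase induced by CHOP and ATF4, read -0.48 and 1.49 against 0.77 and -1.42. Ppp1r15a, which restores translation by directing phosphatase to eIF2, read 0.20 and 1.49 against 0.65 and -0.64. For these 3 genes only 1 of the 1 mM arrays stood above the controls, so the labelled groups overlapped, and the labelled differences were 0.16 ± 1.53, 0.83 ± 1.32 and 0.84 ± 1.29 (SE).

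Another probe set of Ddit3 gave -0.76 as labelled and -0.39 without 1 mM replicate 1. Chac1, which degrades glutathione, read -0.55 and 1.29 against 1.49 and -1.26, so 1 mM replicate 2 lay below 1 control. Atf3, a stress-induced transcription factor, read 0.55 and 0.50 against -0.46 and -0.99, and Asns (asparagine synthetase) 0.37 and 0.05 against -0.21 and -0.91. In Atf3 and Asns both 1 mM arrays lay above both controls, with differences of 1.25 ± 1.05 and 0.77 ± 0.33 (SE). Stc2 (stanniocalcin 2) differed by 0.94, and the amino acid carrier Slc7a5 by 1.30. Atf4 itself differed by -0.03 as labelled, with another probe set at 0.34, and by 0.31 without 1 mM replicate 1. Ero1a, an ER oxidase, and Cth, the cystathionine lyase of cysteine synthesis, differed by 1.05 and 1.57 without it, and Cth read -3.07 in 25 mM replicate 2. Cdsn, which the list also holds, read 0.03 and 2.19 against -0.37 and -0.76. List means were -0.05 and 0.45 at 1 mM and 0.27 and -0.60 at 25 mM, so the controls were farther apart than 1 mM replicate 2 was from the higher of them. At 24 h the means were 0.01 and -0.47 at 1 mM and -0.04 and -0.48 at 25 mM.

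Gadd45a, Car6 and Slc7a11, outside that list and chosen after their values were seen, had a like pattern. Gadd45a, a stress and growth arrest gene, read -0.17 and 2.28 at 1 mM and 0.94 and -0.20 at 25 mM. Car6, a secreted carbonic anhydrase, read 0.01 and 3.07 against 1.23 and -1.16 and had the highest difference of all 18193 genes without 1 mM replicate 1, at 3.03. The amino acid carriers Slc7a2 and Slc7a11 differed by 1.69 and 0.96 in that comparison. For Slc7a2, the arginine carrier, named from the amino acid transporter list, the values were 0.46 and -1.66 against -3.34 and -3.37. Its pattern differed, as the 25 mM arrays lay together and both 1 mM arrays above them. Arrays labelled NIH3T3 at 25 mM and 48 h read 3.26 and 0.72 for Slc7a2. Another of its 4 probe sets gave -0.14 as labelled and -0.21 without 1 mM replicate 1, on the other side of 0.

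ER chaperones and UPR genes lay close to the controls at 48 h, more of them below than above. Of 37 measured, 20 lay below both 25 mM arrays in 1 mM replicate 2 and 7 above, against 33.5% and 38% of all genes, and the median was -0.06 as labelled and -0.09 without 1 mM replicate 1. Hspa5 (BiP, the main ER chaperone) read 0.07 and -0.10 at 1 mM and 0.02 and 0.06 at 25 mM. It differed by -0.14 without 1 mM replicate 1, with another probe set at 0.35. Hsp90b1, the ER paralogue of HSP90, read -0.39 and -0.20 against 0.21 and 0.47, and Xbp1, the factor spliced by IRE1, -0.21 and -0.06 against 0.77 and 0.05. Without 1 mM replicate 1 they differed by -0.54 and -0.47, with other probe sets at -0.10 and -0.054. Herpud1, a component of ER-associated degradation, read 0.15 and -0.68 against -0.62 and -1.70. Ssr1, a translocon-associated subunit, differed by -0.83, with another probe set at 0.24. Ero1b was higher in both 1 mM arrays, 0.40 and 0.38 against -0.16 and -0.70, with another probe set at -0.64. The 1 mM array with the K-ras profile at 72 h read 2.31 for Hspa5, and the list's median at 72 h without the 6 arrays was 1.80.

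**Figure D4:**
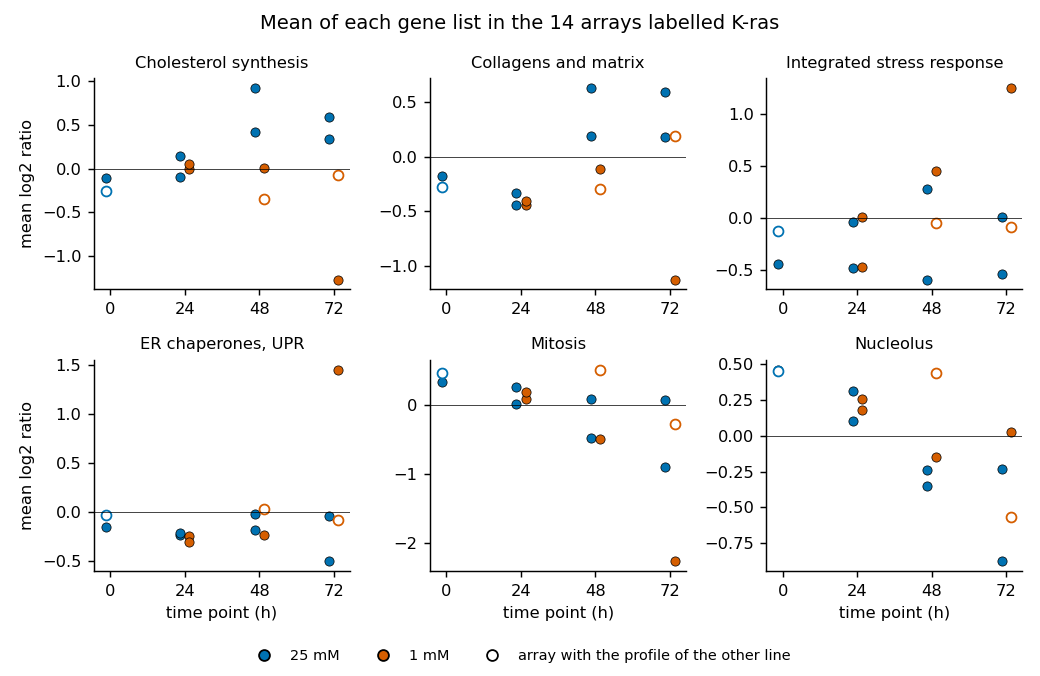
Mean log2 ratio of 6 gene lists in the 14 arrays labelled K-ras, by time point in h and glucose (blue 25 mM, orange 1 mM); open circles are arrays with the profile of the other line. At 24 h the media overlap or nearly so in the cholesterol, matrix, stress response and ER panels, at 48 h the 1 mM arrays lie below the 25 mM arrays for cholesterol and matrix genes, and the ER panel is raised at 72 h in 1 array at 1 mM only, to 1.45.

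Among genes of growth and division, the direction of the mitosis and DNA replication lists depended on which 1 mM array was read. The medians of the nucleolar and tRNA synthetase lists were positive with either array. Of 35 measured ribosome biogenesis and nucleolar genes, 21 lay above both 25 mM arrays in 1 mM replicate 2 and 8 below. Of all genes, 38% and 33.5% did so. Both 1 mM arrays lay above in 21, against 20.4%, but 1 mM replicate 1 has the profile of the other line. The list's median was 0.43 as labelled and 0.25 without 1 mM replicate 1. Heatr1, Utp20 and Rrp12, factors of pre-ribosomal RNA processing, differed by 0.71, 0.81 and 1.43 as labelled and by 0.51, 0.56 and 0.70 without that library. Ebna1bp2 differed by 0.75 and 0.28. Heatr1 had another probe set at 0.10. Myc read 0.31 and 0.73 at 1 mM and -0.27 and -0.34 at 25 mM. Of 19 cytosolic tRNA synthetases, 14 lay above both controls in 1 mM replicate 2, against 38% of all genes, with a median of 0.30 without the other library. Mitotic genes had a median of 0.29 as labelled and -0.24 without 1 mM replicate 1. In 1 mM replicate 2, 17 of 38 lay below both controls, against 33.5% of all genes, and 0 above, while the list mean of the other library was 0.51. The 25 mM arrays gave means of -0.48 and 0.09, and 1 mM replicate 2 gave -0.49, level with the lower control. Top2a, the topoisomerase of dividing cells, read 0.73 and -0.57 against 0.07 and 1.02, a difference of -0.46, with another probe set at 0.27. Of 42 DNA replication genes, 16 lay below both controls in 1 mM replicate 2, near the 33.5% of all genes, and 2 above, against 38%. Their median was -0.17 without 1 mM replicate 1 and 0.91 without 1 mM replicate 2. Tyms (thymidylate synthase) read 0.14 and 0.16 against 0.90 and 1.43, a difference of -1.01, with another probe set at 0.32. The cyclin Ccnd1 read 0.18 and -0.35 against 0.54 and 0.77, with another probe set of Ccnd1 at 0.19. The Cdk inhibitor Cdkn1a differed by 0.35, with another probe set at 0.05, and Fosl1, a Ras-induced AP-1 factor, by -0.07. The groups of Fosl1 overlapped, as did those of Ranbp3l, which differed by -0.07, with another probe set at 0.14.

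Of 21 contractile genes and targets of SRF and YAP, 14 lay above both controls in 1 mM replicate 2 and 2 below. Of all genes, 38% and 33.5% did so. Both 1 mM arrays lay above in 13, against 20.4%, but 1 mM replicate 1 has the profile of the other line. The list's median was 0.64 as labelled and 0.22 without 1 mM replicate 1. Acta2 (smooth muscle actin) read 0.36 and 0.18 at 1 mM and -0.95 and -0.65 at 25 mM, with another probe set differing by 0.06. Tagln (transgelin) read 0.97 and 0.27 against -0.63 and -0.67. Ankrd1 and Ccn2, transcriptional targets of YAP, read 1.22 and -0.05 against -0.58 and -1.23 and 2.61 and -0.13 against -1.35 and -0.52. Amotl2, another YAP target, differed by 0.97 as labelled and 0.32 without 1 mM replicate 1. In each of these genes 1 mM replicate 2 lay above its nearer control by less than 1 log2 unit. Among p53 targets, Plk2 read 0.27 and 0.65 against -0.64 and -0.83, and the death receptor Tnfrsf10b 0.64 and 0.04 against -0.66 and -0.64. Plk2 had another probe set at 0.16, and another of Tnfrsf10b gave 0.051 in place of 0.69 without 1 mM replicate 1. Hlf, a PAR bZIP factor of the clock output, read 0.08 and 0.14 against 3.26 and 1.22.

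The genes that define the K-ras line were themselves lower in 1 mM replicate 2, by far less than in the other library. Of 8 such genes, 6 lay below both 25 mM arrays in that array, against 33.5% of all genes. Crabp1, a retinoic acid-binding protein, read -5.97 and 2.67 at 1 mM and 3.85 and 3.18 at 25 mM. Tcim read -2.11 and 2.57 against 4.38 and 3.26, Cytip -2.52 and 3.23 against 3.94 and 4.07, and Sema7a, a semaphorin, -1.56 and 1.75 against 2.97 and 2.46. Without 1 mM replicate 1 their differences were -0.84, -1.25, -0.77 and -0.97. Another probe set of Cytip gave -0.12, and another of Sema7a gave -0.60 in place of -2.62 as labelled. Of 8 genes high in NIH3T3, Anxa8 (an annexin) and Ctla2a differed by 0.68 each without that library, with another probe set of Anxa8 at -0.36, and the list's median was 0.049.

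At 24 h the same contrast held few differences of 1 log2 unit. In that fit 1 gene (0.0055%) lay at least 1 log2 unit higher and 2 (0.011%) lower at 1 mM, and limma called 0, with 117 (0.643%) at an unadjusted p under 0.05. All 4 of the 24 h K-ras arrays had the K-ras profile. The glucose difference at 48 h minus that at 24 h was tested directly, and limma called 0 of 18193 genes, with 250 (1.37%) at an unadjusted p under 0.05. For Abcd2 this difference of differences was -1.24 ± 0.40 (SE), for Dio2 -3.34 ± 0.90, for Ptgs2 2.43 ± 0.97 and for Txnip -2.23 ± 1.52, each with an adjusted p of 1.00. At 72 h limma called 6 genes higher (0.033%) and 27 lower (0.148%) as labelled, and 277 (1.52%) and 403 (2.22%) without the 6 arrays, which leaves 1 array at 1 mM. Genes named above were in part called in that 72 h comparison without the 6 arrays: Has2 fell by 3.79, Ptgfr fell by 3.72, Cxcl5 fell by 5.93, Gas1 fell by 3.44, Abcd2 fell by 1.66 and Dio2 fell by 2.72 (limma). Hspa5 rose by 2.38 in it, Ptgs2 by 2.99, Tmem47 by 3.15 and Cdsn by 5.39. The 72 h difference was -3.24 for Txnip (adjusted p = 0.12). Hsd17b11, Tsga10 and Tead4, named for 48 h, differed by 0.24, 0.023 and -0.15 at 72 h.

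**Figure D5:**
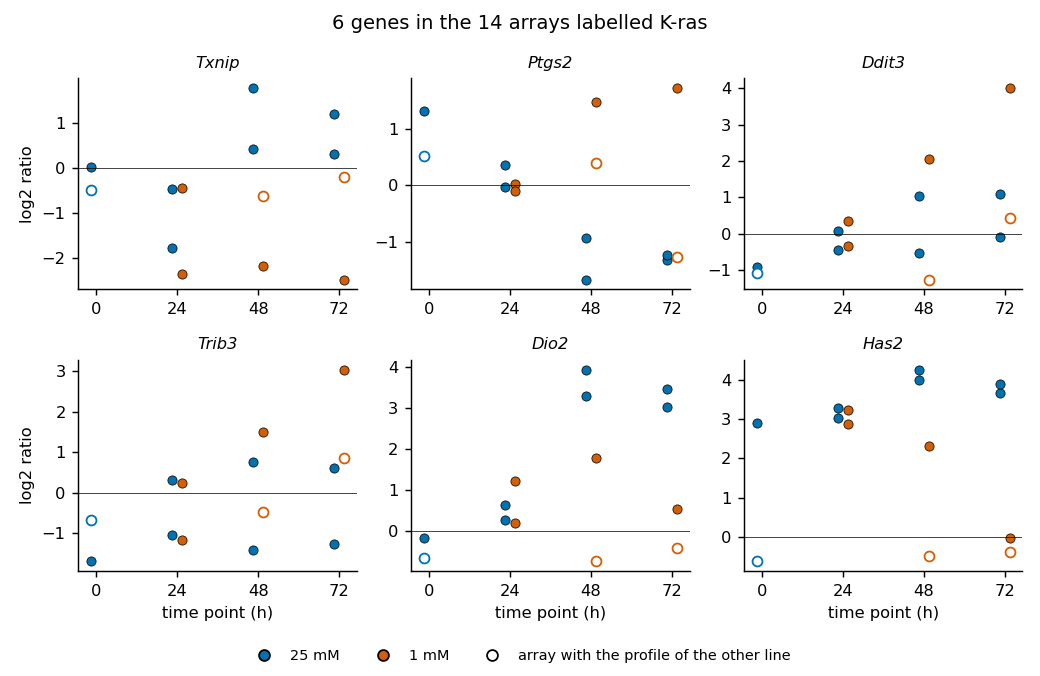
Log2 ratios of Txnip, Ptgs2, Ddit3, Trib3, Dio2 and Has2 in the 14 arrays labelled K-ras, by time point in h and glucose (blue 25 mM, orange 1 mM); open circles are arrays with the profile of the other line. At 48 h the filled orange circle lies outside the range of the blue circles in each panel, below it for Txnip (-2.19), Dio2 (1.78) and Has2 (2.30) and above it for Ptgs2 (1.47), Ddit3 (2.07) and Trib3 (1.49), whereas at 24 h the media lie close together in Ptgs2, Ddit3, Trib3 and Has2.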

How the data were processed

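RNA of 28 cultures was hybridised to Affymetrix 3' expression arrays, 1 array per culture, and RMA is named per the submitters' processing notes, although neither its version nor the step that used it is stated there. The deposited log2 values of 45101 probe sets are ratios to the probe set's own median: the median linear ratio lay within 0.001 of 1 in 45101 of them. Absolute level and signal over background are therefore not in the values, and the number of arrays limits the precision. Of the probe sets, 34945 had 1 gene symbol in the platform annotation, 932 several and 9160 none, and 34741 matched the RefSeq gene table. Each of 18193 genes was represented by its most variable probe set (SD over all arrays).

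Groups were taken from the titles. limma 3.58.1 (R 4.3.3) was fitted to all 28 arrays with 1 coefficient per group, with Benjamini-Hochberg adjustment over all genes and 14 residual degrees of freedom (13 without 1 mM replicate 1). The procedure was tested on simulated data. Members and the 40 gene lists (986 of 1038 entries measured) were chosen with earlier results of these data known. Named genes are up to 10 in each direction with the smallest unadjusted p among those called or, as none was, among those whose groups do not overlap and whose difference without 1 mM replicate 1 is at least 1 log2 unit. To these come up to 4 non-overlapping members of each list and 22 fixed names, of which 21 were measured. Another probe set is given where its value, as labelled or without 1 mM replicate 1, has the other sign or is under 25% of the value. The labels do not say whether replicate numbers pair the samples. The deviation of replicate 1 from its group mean was correlated across genes between the K-ras 1 mM and 25 mM groups. It gave -0.58, -0.17 and -0.25 at 24, 48 and 72 h. At 48 and 72 h the 1 mM replicate 1 array has the profile of the other line, so these values cannot decide on pairing.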

Additional observations from a re-analysis of the deposited data

Results flagged for a closer look

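Il33 read 3.05 in the array labelled NIH3T3 1 mM 48 h replicate 1, which no comparison above uses, while the control arrays labelled NIH3T3 25 mM 48 h read -6.26 and -6.19. Krt14 read -4.17 in the array labelled NIH3T3 1 mM 48 h replicate 1. Across 18193 genes, which are not independent, the array that 1 mM replicate 2 of the K-ras line correlated with best was this one, at r = 0.79, and it was not used as a replicate. It read -2.54 for Txnip, 1.90 for Ddit3, 1.44 for Trib3, 2.43 for Gadd45a, 2.98 for Cdsn, 2.85 for Car6 and 1.25 for Ptgs2. The array of 1 mM replicate 2 of the K-ras line read -2.19, 2.07, 1.49, 2.28, 2.19, 3.07 and 1.47 for the same genes in that order. Why the labels and profiles differ was not tested.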

How the results depend on the processing

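limma called 0 genes under each alternative run on all 4 arrays. These were only the arrays compared, only the 14 arrays labelled K-ras, the line profile as a term and quantile normalization. Others were genes of low SD left out, the mean of a gene's probe sets, every named probe set, array weights and the replicate block. The replicate number as a block gave 0 called and 614 genes at an unadjusted p under 0.05 (limma). Whether that number pairs the samples is not given. Leaving out single arrays gave 0 to 7 called genes, 0 to 1 in the lists and 0 to 3 among the named genes. The 1 was Dio2 (-4.35, without 1 mM replicate 2), and the 7, all lower, came without 25 mM replicate 2: Hp, Cdo1, Myh1, Lama4, Agtr2, Rnf144a and Fcor. Another probe set of Rnf144a differed by -0.020 on all 4 arrays, against -1.10. The difference between 48 h and 24 h had 0 calls under every alternative run. Of 114 genes given, 94 kept their sign under every alternative run. Without the 6 arrays the sign turned for Il33 (0.012), Arrdc4 (-0.33), Atf4 (0.31), Slc2a1 (0.38), Ranbp3l (0.029), Insig1 (0.025) and Col1a2 (0.26). With the line profile as a term it turned for Il33 (0.030), Arrdc4 (-0.34), Hspa5 (0.22), Atf4 (0.23), Slc2a1 (0.23), Fosl1 (0.58) and Ctla2a (-0.0037). With the mean of probe sets it turned for Arrdc4 (-0.097), Ddit3 (-0.30), Atf4 (0.18), Ranbp3l (0.036) and Col1a1 (0.039), and with quantile normalization for Atf4 (0.028). Leaving out 1 array gave a range across 0 for Il33 (-8.61 to 0.012), Arrdc4 (-0.33 to 0.67), Hspa5 (-0.14 to 0.037), Ddit3 (-1.51 to 1.82), Trib3 (-0.27 to 1.93), Chac1 (-1.13 to 1.62), Atf4 (-0.38 to 0.31), Slc2a1 (-0.60 to 0.38), Hk2 (-0.025 to 0.68), Ranbp3l (-0.17 to 0.029), Gadd45a (-0.54 to 1.91), Car6 (-0.023 to 3.03), Ero1a (-0.081 to 1.28), Insig1 (-0.65 to 0.025), Dbp (-0.43 to 1.35), Top2a (-1.11 to 0.19), Col1a1 (-0.73 to 0.35) and Col1a2 (-0.35 to 0.26). The cause was not tested. With 2 arrays a group, of which 1 at 1 mM has the K-ras profile, the spread between cultures at 1 mM cannot be estimated from arrays of that profile.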

Other observations

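In 4 further lists, members are counted above or below both 25 mM arrays in 1 mM replicate 2, where 38% and 33.5% of all genes lay. Of 20 p53 targets, 11 lay above and 4 below, with a median of 0.082 without 1 mM replicate 1. Btg2, an antiproliferative p53 target, was the lowest of them, with 0.37 and -0.99 at 1 mM and 0.78 and 0.01 at 25 mM, a difference of -0.70, with another probe set at -0.012. Of 18 clock genes, 9 lay above and 2 below, with a median of 0.15. Dbp, a PAR bZIP factor like Hlf, read -0.46 and 1.31 against 0.33 and -0.40. Dbp and Hlf thus lay on opposite sides in 1 mM replicate 2. Of 19 NRF2 antioxidant genes, 8 lay above and 6 below, near those shares. Their median was 0.35 without 1 mM replicate 1 and -0.026 as labelled, and Hmox1, the haem oxygenase, read -0.24 and 0.41 against -0.11 and -0.70. Of 34 complex I subunits, 13 lay above, a share at that of all genes, and 7 below, with a median of 0.037. None of these genes passed the adjusted threshold of limma, and they were chosen after their values were seen.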
